A study of Mus musculus with 6 samples.

Results

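A set of 10 genes that report on signalling through the kinase ERK was followed in oligodendrocyte precursor cells (OPCs), dividing glia from which myelinating oligodendrocytes form. They are the Sprouty genes Spry1, Spry2 and Spry4, the Sprouty-related gene Spred1, the phosphatase genes Dusp4 and Dusp6, the ETS transcription factor genes Etv1, Etv4 and Etv5, and Il17rd, also called Sef. These members were taken by symbol from the mouse gene annotation, out of 31266 genes given a value, and matched by position to the transcripts assembled in each library. The rule that takes them uses no measured value, but the set was chosen with earlier results of these data known.

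The RNA came from spinal cord cells of C57BL/6 mice at postnatal day 0.5, taken by magnetic pulldown of cells bearing A2B5, a surface epitope of glial precursors. There were 3 libraries from Gde3 KO cells and 3 from Gde3 WT cells. GDE3, the product of Gdpd2, sits in the cell membrane and cuts the glycosylphosphatidylinositol anchor of surface proteins. All 6 cultures had the same treatment: 16 h on poly-L-lysine and laminin at 150000 cells per cm2, in proliferative medium holding B27, N2, 5 µM forskolin, PDGF at 10 ng/mL and CNTF at 10 ng/mL. The labels name neither the deleted exons nor the animals, and do not say whether a library is 1 pup, a pool or a litter, so the p-values cover only how these libraries vary, and that variation may be technical. The descriptions carry an identifier whose middle number is 3 for replicate 1 of both genotypes and 4 for replicates 2 and 3. The labels do not say what this number marks.

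Growth factors such as PDGF and FGF bind receptor tyrosine kinases, which activate RAS, then the kinases RAF and MEK, and finally ERK. Active ERK induces genes that dampen it: Sprouty and Spred proteins act between receptor and RAF, DUSP6 takes phosphate off cytoplasmic ERK, DUSP4 does so in the nucleus, and IL17RD holds back receptor and ERK signalling at membranes. The ETS factors ETV1, ETV4 and ETV5 are transcribed in response to the same pathway and carry it to further genes, and in the OPC lineage PDGF is the classical mitogen that feeds it.

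The transcript at each locus was assembled anew in every library, so its assembled 5′ end can be set beside the promoters. Such an end is where the assembly stops and was not measured as a start of transcription. In RefSeq (build GRCm38.p6), 7 of the 10 members have promoter entries, 9 in all. The 4 shown are those with a spliced transcript starting within 150 nt of the RefSeq start in at least 3 libraries. Each is the 250 bases before that start, 5′ to 3′ on the gene's strand, and capitals mark GGGCGG (the GC box) and CCAAT (the CCAAT box) on either strand, which overlap at 1 place in Il17rd.
Spry1 promoter, chr3:37639697-37639946, plus strand: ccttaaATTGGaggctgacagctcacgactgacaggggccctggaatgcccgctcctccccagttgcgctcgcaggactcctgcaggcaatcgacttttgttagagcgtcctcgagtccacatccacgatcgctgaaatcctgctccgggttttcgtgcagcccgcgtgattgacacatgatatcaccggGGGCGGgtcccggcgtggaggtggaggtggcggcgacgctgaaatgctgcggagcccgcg
Dusp6 promoter, chr10:99262981-99263230, plus strand: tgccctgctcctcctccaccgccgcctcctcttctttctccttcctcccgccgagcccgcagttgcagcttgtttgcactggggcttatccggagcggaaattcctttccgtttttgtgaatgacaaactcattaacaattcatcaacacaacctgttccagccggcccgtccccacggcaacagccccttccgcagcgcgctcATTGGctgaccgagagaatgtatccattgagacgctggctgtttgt
Etv5 promoter, chr16:22439571-22439820, minus strand: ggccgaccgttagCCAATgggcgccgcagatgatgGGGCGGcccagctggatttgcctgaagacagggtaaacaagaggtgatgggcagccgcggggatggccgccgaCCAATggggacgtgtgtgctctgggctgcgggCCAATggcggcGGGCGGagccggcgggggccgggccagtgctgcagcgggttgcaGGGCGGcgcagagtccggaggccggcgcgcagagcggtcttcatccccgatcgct
Il17rd promoter, chr14:27038751-27039000, plus strand: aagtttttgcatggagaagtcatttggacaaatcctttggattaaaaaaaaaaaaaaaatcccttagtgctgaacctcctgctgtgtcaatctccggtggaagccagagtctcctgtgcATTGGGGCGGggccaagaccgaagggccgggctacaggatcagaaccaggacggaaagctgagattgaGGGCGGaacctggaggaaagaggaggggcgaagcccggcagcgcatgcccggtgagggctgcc
In Spry1, the nearest assembled start lay 0 to 10 nt downstream of the RefSeq start in all 6 libraries. In Il17rd it lay from 105 nt upstream to 53 nt downstream, and in Dusp6 from 280 nt upstream to 10 nt downstream. Etv5 transcripts began 51 to 152 nt upstream of the start shown, so these assembled ends fall inside the printed sequence, and 1253 nt or more from a second RefSeq start. GGGCGG was found in 4 of the 9 member entries, against 32.7% of all 32851 entries of that length, and CCAAT in 5, against 33.8%. The longer ETS site CCGGAA was in 0 of 9 (12% of all entries). The short cyclic AMP response site TGACG was in 0 (17.8%) and the AP-1 site TGANTCA in 0 (6.75%). Each was searched on both strands. The shorter ETS core GGAA was not counted, and it does stand in the printed Spry1 and Dusp6 sequences, for example. These counts say only which letters stand in these windows.

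The libraries differed in how completely they were assembled. They held 32098 to 56807 transcripts, and WT replicate 1 stood apart, with 36.8% of its transcripts under 300 nt and a median length of 438 nt, where the other 5 libraries had medians of 1173 to 1830 nt. Depth is known only relative to the deepest library and ran from 0.759 in WT replicate 1 to 1. Gdpd2, the targeted gene, was at 0.667, 1.50 and 1.78 FPKM in KO replicates 1 to 3 and at 0, 2.79 and 2.85 FPKM in WT replicates 1 to 3, so its genotypes overlapped and its gene value does not check the labels; the 0 means that no transcript of 300 nt or more was assembled there. FPKM is fragments scaled to transcript length and to the number mapped in the library, and a gene's value here is the FPKM averaged over its exonic bases. The 10 OPC markers, Pdgfra, Cspg4, Olig2 and Sox10 among them, were detected in every library and summed to 906 to 1436 FPKM. Astrocyte markers summed to 118 to 639 FPKM and microglial markers to 51.7 to 173 FPKM. Markers of neurons summed to 114 to 172 FPKM and those of myelinating oligodendrocytes to 94.9 to 174 FPKM. Fibroblast and meningeal markers summed to 48.2 to 126 FPKM, and endothelial and mural markers to 5.76 to 19.1 FPKM.

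All 10 members were expressed, and all passed the minimum of 1 FPKM on average that was set for testing. Etv5 was the highest, at 84.8 ± 10.5 FPKM (SD, n = 6 libraries), above 94.7% of the 12045 genes tested. Spry2 (44.6 ± 5.04) and Spry1 (43.2 ± 12.5 FPKM) followed, with ranges that overlapped. Next came Dusp6 (21.4 ± 2.02), Spry4 (20.9 ± 3.10), Spred1 (18.8 ± 3.41) and Etv4 (17.6 ± 1.63 FPKM), where each neighbouring pair overlapped. Etv1 (10.7 ± 1.04) and Dusp4 (9.35 ± 2.49 FPKM) overlapped each other, and Il17rd was lowest at 1.46 ± 0.299 FPKM, below every library's value of the other 9. The order had 4 breaks at which all 6 libraries of one gene lay above all 6 of the next: after Etv5, after Spry1, after Etv4 and after Dusp4.

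**Figure D1:**
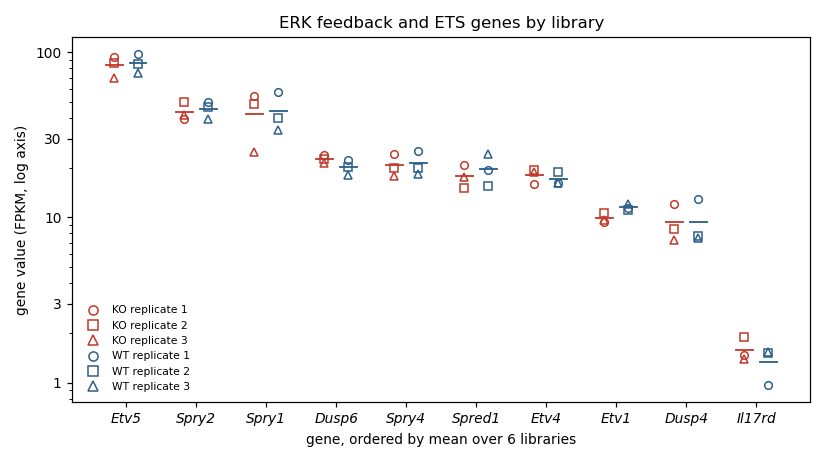
Gene value in FPKM (log axis) of the 10 members, with 1 point per library, KO in red on the left and WT in blue on the right of each gene; short bars are means of 3 libraries. The genotypes overlap in 9 of the 10 genes, the exception being Etv1, where KO lies at 9.36 to 10.7 and WT at 11.1 to 12.1 FPKM.

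The first comparison asked whether these readouts of ERK activity differ between Gde3 KO and Gde3 WT cells in the same growth factor medium. None of the 10 members passed the test, and in 9 of the 10 the genotypes overlapped. By limma with Benjamini-Hochberg adjustment over all genes tested, 0 of 10 passed 0.05, against 0.00830% of genes (1 of 12045), and 0 of 10 had an unadjusted p under 0.05, against 1.62%. In KO 4 members were higher and 6 lower, with a median log2 difference of -0.044, beside -0.0055 over all genes tested. Every member's adjusted p was 0.9999. The fitted differences lay between -0.20 (Etv1) and 0.16 (Dusp6) on the log2(FPKM + 1) scale. That scale understates differences of low genes: Il17rd was at 0.15 on it, and at 0.25 with 0.1 added in place of 1.

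Sprouty proteins block growth factor signalling upstream of ERK and are themselves induced by it. Spry1 (ENSMUSG00000037211.12, mm10 chr3:37639947-37644598, plus strand) was at 54.2, 48.8 and 24.8 FPKM in KO replicates 1 to 3 and at 57.4, 40.2 and 34.0 FPKM in WT replicates 1 to 3. KO replicate 3 was the lowest library and WT replicate 1 the highest, and the genotypes overlapped. The log2 difference, KO minus WT, was -0.083 (95% interval -0.91 to 0.75), the widest interval of the 10. Spry2 (ENSMUSG00000022114.5, chr14:105891947-105896819, minus strand) was at 39.4, 50.1 and 41.8 FPKM in KO and 50.3, 46.8 and 39.6 FPKM in WT. Its lowest and second highest libraries were both KO, and the log2 difference was -0.058 (-0.41 to 0.30). Spry4 (ENSMUSG00000024427.7, chr18:38586247-38601415, minus strand) was at 24.3, 19.9 and 17.8 FPKM in KO and 25.3, 20.0 and 18.4 FPKM in WT, replicate by replicate nearly the same. The difference within each replicate number was -0.059, -0.0079 and -0.046 log2, and the fitted value was -0.038 (-0.45 to 0.38).

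Spred1 (ENSMUSG00000027351.14, chr2:117121374-117182279, plus strand), whose protein recruits the RAS inhibitor neurofibromin to the membrane, was at 20.8, 15.2 and 17.6 FPKM in KO and 19.4, 15.6 and 24.2 FPKM in WT. WT replicate 3 was the highest library, and the log2 difference was -0.13 (-0.60 to 0.35). Without WT replicate 3 it was 0.025.

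Dusp6 and Dusp4 encode phosphatases that inactivate ERK. Dusp6 (ENSMUSG00000019960.8, chr10:99263231-99267489, plus strand) was at 23.9, 22.6 and 21.4 FPKM in KO and 22.4, 20.2 and 18.2 FPKM in WT. The KO library was the higher in 3 of 3 same-numbered pairs, by 0.090, 0.15 and 0.22 log2, but the genotypes overlapped. The fitted difference was 0.16 (-0.12 to 0.43). Dusp4 (ENSMUSG00000031530.6, chr8:34807297-34819894, plus strand) was at 12.1, 8.54 and 7.35 FPKM in KO and 12.9, 7.69 and 7.52 FPKM in WT. Both replicate 1 libraries were high whatever the genotype, and the difference between genotypes was 0.0059 (-0.63 to 0.64).

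Among the ETS factors, Etv1 (ENSMUSG00000004151.17, chr12:38779380-38870484, plus strand) was the one member whose genotypes did not overlap. It was at 9.36, 10.7 and 9.71 FPKM in KO and 11.5, 11.1 and 12.1 FPKM in WT, so the highest KO library lay just under the lowest WT library. The log2 difference was -0.20 (SE 0.10, -0.45 to 0.046), a fold of 0.870, with an unadjusted limma p of 0.0938 and an adjusted p of 0.9999. This 1 member without overlap stands beside 5.06% of all genes tested, made up of 3.03% with all KO below WT and 2.03% with all KO above. An exact permutation test, two-sided, gave p = 0.1, the smallest that 3 against 3 libraries allow. Within the identifier numbers, the difference was -0.27 in the pair numbered 3 and -0.17 over the 4 libraries numbered 4.

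Etv4 (ENSMUSG00000017724.14, chr11:101769742-101785371, minus strand) was at 16.1, 19.5 and 18.8 FPKM in KO and 16.1, 18.8 and 16.1 FPKM in WT. KO replicate 1 and WT replicates 1 and 3 formed a low set of nearly equal values, and the log2 difference was 0.085 (-0.21 to 0.38). Etv5 (ENSMUSG00000013089.15, chr16:22381309-22439719, minus strand) was at 93.7, 85.9 and 70.3 FPKM in KO and 98.0, 85.5 and 75.3 FPKM in WT. The order over replicates was the same in both genotypes, and the difference was -0.051 (-0.45 to 0.34). Il17rd (ENSMUSG00000040717.6, chr14:27038941-27107286, plus strand) was at 1.46, 1.90 and 1.39 FPKM in KO and 0.964, 1.50 and 1.53 FPKM in WT. WT replicate 1 was the lowest, and it was also the library where 39.8% of the gene's exonic bases were assembled, against 70.9% to 74.9% in the others. The difference was 0.15 (-0.30 to 0.60).

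**Figure D2:**
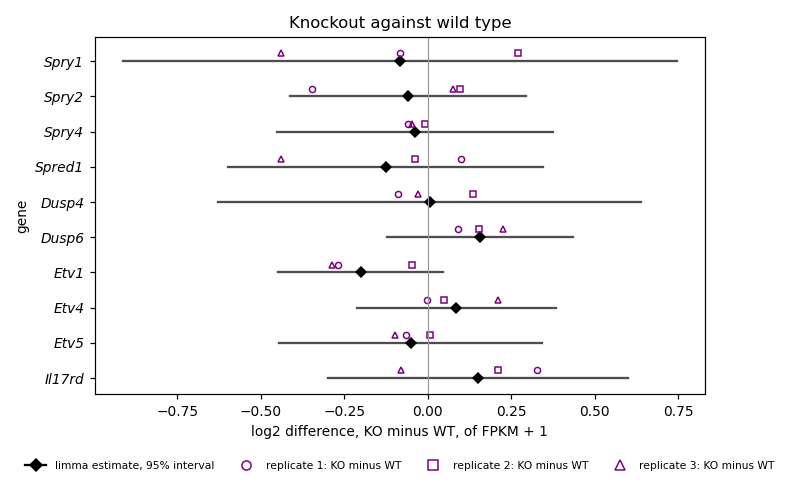
Log2 difference of FPKM + 1, KO minus WT, for each member. Diamonds with lines are limma estimates with 95% intervals over 3 and 3 libraries, and open purple symbols are the differences within each replicate number. All 10 intervals include 0, with Etv1 ending closest to it at 0.046.

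These intervals limit how large a difference could have gone unseen in the fit on genotype alone, in which spread between replicate numbers counts as error. For Spry2, Spry4, Dusp6, Etv1, Etv4 and Etv5 the bounds stayed within -0.45 and 0.43 log2, while for Dusp4 and Spry1 they reached at least 0.63 in both directions. Leaving out WT replicate 1, the fragmented library, gave 8 members higher and 2 lower in KO, again with 0 called. Microglial markers moved with genotype, being higher in KO for 7 of 7 tested and summing to 92.4 to 173 FPKM in KO against 51.7 to 72.5 in WT, with 0 of them called and none of the 8 at 0 in every library. Their part in the members' values was not tested. In these bulk libraries fewer cells of a type and less RNA per cell cannot be told apart.

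Several members followed the replicate number alike in both genotypes. In 5 of 10 members (Spry1, Spry4, Dusp4, Dusp6 and Etv5) replicate 1 was the highest and replicate 3 the lowest library within KO and within WT alike, against 8.74% of all genes tested. Counted with FPKM times assembled length, described further on, 4 of 10 had that order, Spry1 being the one that did not. The share over all genes was not computed on that scale. Same-numbered libraries also deviated together over all genes, so the numbers were taken to pair the samples. The labels give no pairing, so it rests on these same data, and the replicate 1 libraries also share the identifier number 3. With the replicate number as a block the members' log2 differences were the same by construction. By limma 0 of 10 passed, with adjusted p of 0.809 to 0.989, in a fit with few residual degrees of freedom. The SE was smaller there than with genotype alone, at 0.082 in place of 0.26 for Dusp4 and 0.16 in place of 0.34 for Spry1.

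The replicate 1 libraries, numbered 3 in their identifiers, were then set against the other 4, with genotype as a covariate. Of the 10 members 0 passed the adjusted threshold, against 2.07% of genes tested (0.349% higher and 1.72% lower), and 2 of 10, Dusp4 and Spry4, had an unadjusted p under 0.05, against 24.2%. Without overlap, 4 members lay above, against 18.7% of genes, and 1 below, against 21.3%, together 5 of 10 against 40.0%. Dusp4 was at 12.1 and 12.9 FPKM in the replicate 1 libraries and at 7.35 to 8.54 FPKM in the other 4. The log2 difference was 0.62 (SE 0.10, 0.36 to 0.88) with a limma adjusted p of 0.0560. The call depended on the weighting: with limma's array weights the adjusted p was 0.0390, while over the remaining alternatives it was 0.0536 to 0.358.

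Spry4 was at 24.3 and 25.3 FPKM in the replicate 1 libraries and 17.8 to 20.0 FPKM in the other 4, a log2 difference of 0.37 (SE 0.09, adjusted p = 0.110). Etv5 was at 93.7 and 98.0 against 70.3 to 85.9 FPKM, a difference of 0.28 (SE 0.12, adjusted p = 0.251).

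Spry1 was at 54.2 and 57.4 FPKM in the replicate 1 libraries and 24.8 to 48.8 FPKM in the other 4, a difference of 0.62 (SE 0.28, adjusted p = 0.254). Etv4 went the other way without overlap, at 16.05 and 16.07 against 16.12 to 19.46 FPKM, a difference of -0.17 (adjusted p = 0.350). Spry2 (0.0053), Spred1 (0.16), Dusp6 (0.16), Etv1 (-0.061) and Il17rd (-0.23) overlapped. The direction for Spry2, Spred1, Etv1 and Il17rd turned under at least 1 alternative. With 2 against 4 libraries the smallest exact permutation p is 0.0667, which Dusp4 and Spry4 had.

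The Spry1 values went with the extent of the assembled 3′ end, and the cause of this was not tested. The gene's FPKM fell in exactly the order in which its assembled 3′ end ran on past the annotated end. WT replicate 1 ended at -26 nt (short of the annotated end) with 57.4 FPKM, and KO replicate 1 at 46 nt with 54.2 FPKM. KO replicate 2 ended at 240 nt with 48.8 FPKM. WT replicates 2 and 3 ended at 696 and 728 nt with 40.2 and 34.0 FPKM, and KO replicate 3 at 2025 nt with 24.8 FPKM. FPKM divides by assembled length, so FPKM times length in kilobases, summed over the gene's transcripts, was computed as well, an alternative added after the data were seen. On that scale Spry1 was at 125, 130 and 113 in KO and 138, 126 and 114 in WT. Its highest value was 1.22 times its lowest, in place of 2.31 times for FPKM, and its coefficient of variation was 7.77% in place of 29.0%. The replicate 1 difference became 0.12 log2 (adjusted p = 0.486) and the KO minus WT difference -0.035 (-0.31 to 0.24). Dusp4 (0.67, adjusted p = 0.0536), Spry4 (0.36, adjusted p = 0.0735) and Etv5 (0.28, adjusted p = 0.193) kept their size on that scale.

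**Figure D3:**
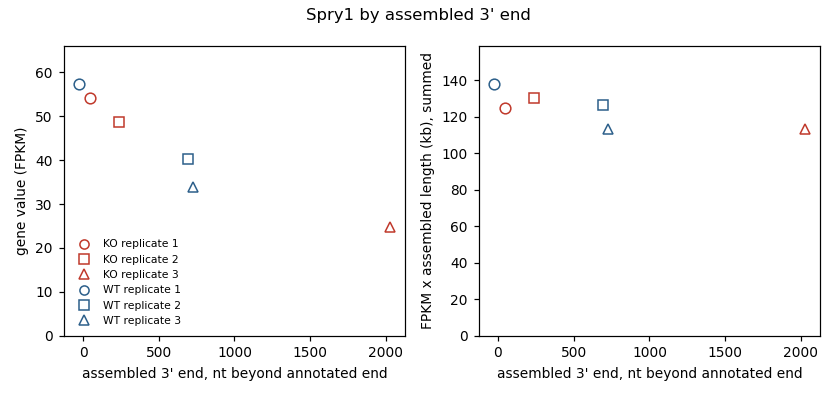
Spry1 in the 6 libraries against the distance in nt by which the outermost assembled 3′ end runs past the annotated end. The left panel shows the gene value in FPKM, which falls from 57.4 to 24.8 along the axis; the right panel shows FPKM times assembled length in kb, which stays between 113 and 138.

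Etv1 on the length-multiplied scale kept its separation, at 71.7, 78.9 and 74.4 in KO and 82.7, 89.2 and 92.6 in WT. The log2 difference was -0.23 (-0.46 to -0.0011) with an unadjusted limma p of 0.0492 and an adjusted p of 0.9998, so it was not called there either. In the 20 alternatives run for KO against WT, which left out libraries, rescaled the values or changed the model, the Etv1 difference kept its direction. With every KO library below every WT library, leaving out libraries or changing the pseudocount, filter or weights could not turn it. Those settings therefore do not show stability.

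For 6 members there was a single assembled transcript of 300 nt or more in all 6 libraries, with the splice pattern of an annotated isoform: Spry2, Spry4, Spred1, Dusp4, Dusp6 and Etv5. No summing over fragments entered their values. Dusp4 ran 1930 to 2056 nt beyond its annotated 3′ end in every library, including both genotypes. Spry2 began 338 to 728 nt before its annotated start and its 3′ end stood at -445 to -433 nt, short of the annotated end. Spred1 began 598 to 763 nt before its annotated start. The other 4 were assembled in several pieces or isoforms, with 2 to 5 transcripts for Spry1, 2 to 4 for Etv1, 2 to 5 for Etv4 and 1 to 9 for Il17rd, the 9 being in WT replicate 1. In Spry1, a transcript of 2 exons that matches no annotated splice pattern was present in all 6 libraries.

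**Figure D4:**
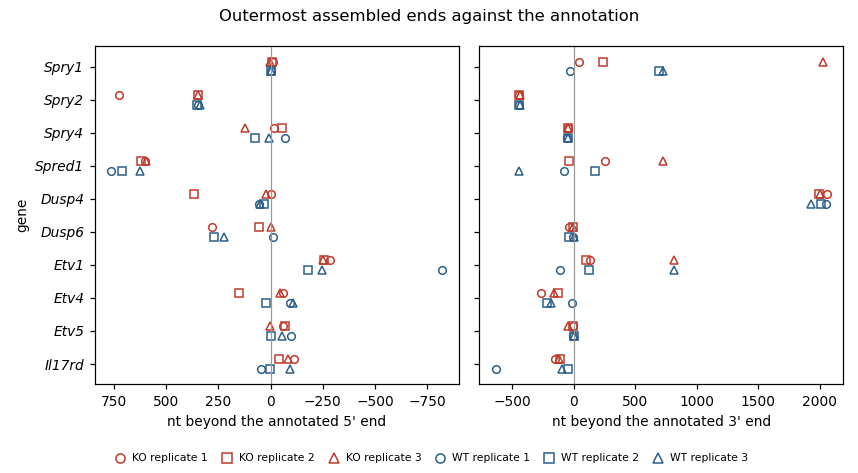
Distance in nt from the annotated ends to the outermost assembled 5′ end (left, axis reversed so that upstream is to the left) and 3′ end (right) of each member, with 1 point per library, KO in red and WT in blue. Dusp4 extends past its annotated 3′ end by about the same length in all 6 libraries, whereas Spry1 spreads from -26 to 2025 nt.

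The members were next set beside other genes of the pathway. Of 9 other Sprouty, Spred and MAP kinase phosphatase genes tested, 6 were higher and 3 lower in KO and 0 were called. That split did not hold: 9 were higher and 0 lower without WT replicate 1, 3 higher and 6 lower without WT replicate 3 or without KO replicate 2, and 3 higher and 7 lower with the sum of FPKM over transcripts. In the replicate 1 libraries 5 of the 9 were higher and 4 lower than in the other 4, with a median of 0.29 log2. Without overlap 4 lay above, against 18.7% of all genes tested, and 1 below, against 21.3%. Of the 9, 0 were called, against 2.07%. Spred2, the most abundant, was at 31.0, 24.1 and 20.0 FPKM in KO and 34.7, 26.9 and 21.0 FPKM in WT, again highest in replicate 1 (0.50 log2 against the other 4, adjusted p = 0.127). Dusp5, a nuclear ERK phosphatase, was at 10.1 and 10.8 FPKM in the replicate 1 libraries and 3.13 to 5.77 FPKM in the others, a log2 difference of 1.11 (SE 0.27, adjusted p = 0.105). Spred3 and Dusp8 followed Spred2 in level, at 11.9 and 11.3 FPKM on average. Spred3 had a negative difference in the replicate 1 libraries, at 13.5 and 3.01 FPKM against 11.2 to 18.1 FPKM (-0.92 log2, SE 0.41, adjusted p = 0.253), and WT replicate 1 was its one low library.

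A list of 25 other ERK output genes, among them immediate early genes, was tested in full. In KO 16 were higher and 9 lower, with 0 called and a median log2 difference of 0.10. The direction turned with 1 library left out: 4 were higher and 21 lower without WT replicate 3 (median -0.11), and 9 higher and 16 lower without KO replicate 1 (-0.056). Without WT replicate 1, 21 were higher and 3 lower (0.21). Against the replicates 2 and 3, the replicate 1 libraries were higher in 20 and lower in 5, with a median of 0.51 log2 beside 0.0051 over all genes and 0.16 over the 10 members. In 14 of the 25 both replicate 1 libraries lay above the other 4, against 18.7% of all genes, and in 0 they lay below. Here 1 gene was called, against 2.07% of genes: Vgf, a neurotrophin-inducible secreted protein, at 208 and 233 FPKM in the replicate 1 libraries and 49.1 to 89.8 FPKM in the others. Its log2 difference was 1.71 (SE 0.23, adjusted p = 0.0425), and the call was lost when any 1 of the 6 libraries was left out (adjusted p = 0.0808 to 0.252). The call was also lost with no filter on low values (0.0507), quantile normalization (0.0565), assembled bases only (0.103), the sum of FPKM (0.274) and no length minimum (0.0766). With FPKM times assembled length 2 genes of the list were called by limma, Vgf (adjusted p = 0.0311) and Fosl1, another AP-1 subunit (adjusted p = 0.0419). Fosl2, an AP-1 subunit, was at 12.3 and 13.4 against 5.60 to 8.45 FPKM (0.81, adjusted p = 0.0671). Myc was at 87.2 and 94.5 against 42.6 to 84.1 FPKM (0.55, adjusted p = 0.353), and Ccnd1, the most abundant, was at 261 and 329 against 264 to 333 FPKM (-0.065), with overlap.

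**Figure D5:**
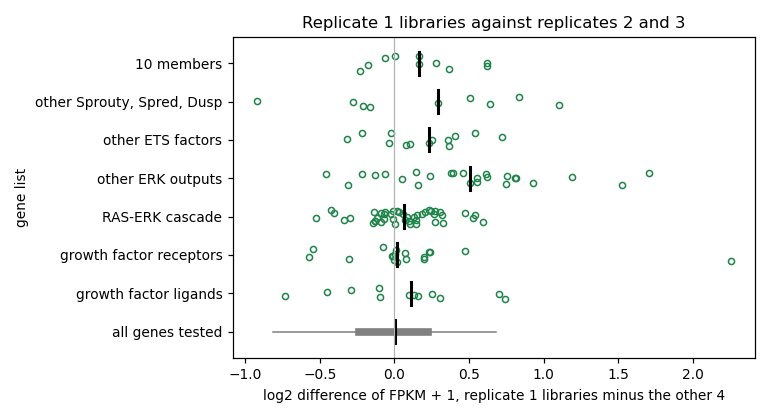
Log2 difference of FPKM + 1, the 2 replicate 1 libraries minus the other 4, with genotype as a covariate. Points are tested genes of each list, black bars medians, and for all genes tested the thin and thick lines span the 5th to 95th and 25th to 75th percentiles. The members' median is 0.16 and that of the other ERK outputs 0.51, beside 0.0051 for all genes.

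Other values moved with the replicate 1 libraries too. Over all genes tested, 0.349% were called higher there and 1.72% lower. Astrocyte markers, 0 of 6 higher, summed to 118 and 177 FPKM there against 355 to 639 in the other 4, with 1 of them called lower. Markers of OPCs, the labelled cell type, were higher there in 9 of 10, with a median of 0.22 log2 and 0 called. They summed to 1321 and 1436 FPKM against 906 to 1294 in the other 4. Cycling-cell markers were higher in 2 of 6 and lower in 4, with 2 called lower, and summed to 437 and 453 against 489 to 660 FPKM. Mki67, a mark of dividing cells, was at 14.2 and 12.1 FPKM against 67.4 to 73.7 FPKM, while Pcna (0.31 log2) and Mcm2 (0.24), which act in DNA replication, were the 2 with a positive difference and were not called. Endothelial and mural markers were higher in 4 of 4 tested, with 1 called, and summed to 17.5 and 19.1 against 5.76 to 11.8 FPKM. None of the listed markers of these 4 kinds was at 0 in every library. Their part in the members' values was not tested, and what the identifier number marks, the cultures and the sequencing cannot be told apart here.

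Upstream of ERK, 44 genes of the RAS-RAF-MEK-ERK cascade were tested, of which 20 were higher and 24 lower in KO with 0 called. Shc1, an adaptor between receptors and RAS, had the smallest unadjusted p (0.0276, adjusted p = 0.9999 by limma), at 13.3, 9.63 and 9.62 FPKM in KO and 7.14, 8.07 and 7.85 FPKM in WT. Sos1, the exchange factor that loads RAS with GTP, was at 8.82, 9.09 and 8.49 FPKM in KO and 10.5, 10.6 and 10.0 FPKM in WT (-0.22, adjusted p = 0.9999). Shc1 and Sos1 were among 4 of the 44 whose genotypes did not overlap, against 5.06% of all genes tested. Pebp1, an inhibitor of RAF, was the most abundant at 399 FPKM on average, followed by Rasa3 and Map2k2. Lztr1, an adaptor for the turnover of RAS proteins, was in the replicate 1 libraries at 16.8 and 16.9 against 22.9 to 26.7 FPKM (-0.53 log2, adjusted p = 0.0667), short of the threshold. Of 13 other ETS factor genes tested, 8 were higher and 5 lower in KO with 0 called. Erf, an ETS repressor that ERK exports from the nucleus, was at 16.1, 24.4 and 17.6 FPKM in KO and 13.9, 18.8 and 15.5 FPKM in WT. Ets2 was at 19.0 and 22.6 FPKM in the replicate 1 libraries and 15.1 to 15.9 FPKM in the other 4 (0.40 log2, adjusted p = 0.0968). Spi1, an ETS factor of microglia, was at 4.77, 3.64 and 6.29 FPKM in KO and 4.32, 1.64 and 2.79 FPKM in WT, in the direction of the microglial markers.

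The 10 members did not share a single pattern over the 6 libraries. Spry1, Spry4, Dusp4 and Etv5 went together (Pearson r of 0.83 to 0.98 between any pair of them), whereas Etv4 ran against Spred1 (-0.88), Dusp4 (-0.62) and Spry4 (-0.58). Spry2 ran against Spred1 (-0.68), and Il17rd had a negative r with 8 of the 9 others. The mean of the members' standardised log2 values was taken in each library as a summary. For KO it was 0.24, 0.31 and -0.61 and for WT 0.49, -0.065 and -0.37, each in the order of the replicate numbers, so both replicate 3 libraries were the lowest. Among 8304 genes at 5 FPKM or more and at 0 in no library, the 5 most like this mean over the 6 libraries were Fam207a (Pearson r = 0.994), Dnajc8 (0.989), Dusp1 (0.988), Gdap1l1 (0.984) and Sod3 (0.980). Dusp1, an immediate early phosphatase, was at 13.3, 12.7 and 6.72 FPKM in KO and 15.4, 9.42 and 7.38 FPKM in WT. The 6 points share library preparation and assembly, and these r values describe the libraries without a test. The r values, the members' mean and the likeness to it use FPKM, which for Spry1 went with its assembled 3′ end. They were not computed with FPKM times assembled length.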

How the data were processed

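The RNA-seq libraries, 3 Gde3 KO and 3 Gde3 WT by their genotype labels and numbered by their titles, were analysed. The submitters' processing notes name mm10, FastQC and the versions 2.1.1 of TopHat2 and 2.2.1 of both Cufflinks and Cuffdiff. Each library has its own deposited transcript assembly, in which every transcript carries the authors' FPKM, an interval for it and a coverage. Without read counts depth is relative, from coverage per FPKM, no counting interval was computed, and no count test was run. Whether the libraries keep strand is unknown, and 0 columns of other samples were present.

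Transcripts of 300 nt or more, on a gene's strand or unstranded, were matched by position to GENCODE M21 basic genes (mm10). A gene's value is the summed FPKM averaged over exonic bases that no other gene shares (at least 200). Spry1 shares part of its exons, and 2196 of its 2906 bases were used. The average falls where part of a gene is unassembled. Genes averaging at least 1 FPKM (12045 of 31266) were tested on log2(FPKM + 1) by limma 3.58.1 (R 4.3.3, trend, two-sided) with Benjamini-Hochberg adjustment at 0.05. KO against WT was fitted on genotype alone, and identifier number 3 against 4 with genotype as covariate.

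Same-numbered libraries deviated together (r across genes, which are not independent = 0.369, 0.197 and 0.293, against -0.277 to 0.0234 for other combinations), which is the source of the pairing with the titles' numbers. Values were centred within each genotype, which pushes r of the other combinations down wherever the same-numbered r is positive. This contrast therefore does not test the pairing. The gene values were first tested on made-up assemblies. The fits were tested afterwards on simulated libraries whose means and SDs came from these data, without pairing. Changes of 1 log2 were recovered in 51% of cases for KO against WT, 1% with the replicate block and 35% for identifier 3 against 4. For changes of 2 log2 it was 79%, 54% and 66%, so the tests missed many real changes there. Beside the members, named genes were drawn, per list, from the 3 highest, the 2 with the smallest p in each comparison and any past the threshold, and the 5 most like the members' mean; Mki67, Pcna, Mcm2 and Fosl1 were named after their values were seen. The members and lists were chosen with earlier results of these data known. Alternatives covered pseudocounts, filters, scaling, weights, gene values, the block and left-out libraries.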

Additional observations from a re-analysis of the deposited data

How the results depend on the processing

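Called members stayed at 0 for KO against WT in all 20 alternatives run and, for identifier number 3 against 4, in all but array weights, which called 1 (Dusp4). Genes called for KO against WT, 1 as reported, were 0 with pseudocounts of 0.1 and 5, a mean of 5 FPKM or more, the sum of FPKM or the replicate block, 2 over assembled bases only, 1 to 17 leaving out 1 library (17 without KO replicate 1), and 27 without both replicate 1 libraries. With the replicate block, which uses the pairing, 0 members were called, but few residual degrees of freedom remain, so this says nothing about stability. Genes called for identifier 3 against 4, 249 as reported, were 165 with quantile normalization, 557 with array weights, 70 over assembled bases, 7 with the sum, 8 with no length minimum, 679 with FPKM times assembled length (added after the data were seen) and 5 to 46 leaving out 1 library. The sum moved the median of all genes by 0.29 log2 in that comparison. The causes were not tested.

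Small differences turned direction. For KO minus WT, leaving out 1 library gave -0.29 to 0.26 for Spry1, -0.15 to 0.090 for Spry4 and -0.14 to 0.065 for Etv5, all turning without KO replicate 3 or WT replicate 1. The range was -0.16 to 0.015 for Spry2 (turning without either replicate 1 library), -0.27 to 0.025 for Spred1 (without WT replicate 3) and -0.18 to 0.24 for Dusp4 (without KO replicate 1, WT replicate 2 or WT replicate 3). Spry2 was 0.085 without both replicate 1 libraries and 0.025 with FPKM times length. Il17rd was -0.27 with the sum and -0.061 with no length minimum. For identifier 3 minus 4, leaving out 1 library gave -0.21 to 0.22 for Spry2 (turning without KO replicate 3, WT replicate 1 or WT replicate 3) and -0.0041 to 0.33 for Spred1 (without KO replicate 1). Spry2 was -0.10 with quantile normalization. Over assembled bases and with the sum, Etv1 was 0.054 and 0.39, and Il17rd 0.044 and 1.47, with 0.091 for Il17rd without a length minimum. None of these passed the threshold. With 3 libraries a genotype and depth known only relatively, differences inside the intervals given could not be seen in the fit on genotype alone.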

Other observations

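Genes listed as growth factor ligands and receptors were described as values. The lists also hold genes such as Fgf12, Fgf13, Fgf14 and Fgfrl1, which need not feed the pathway. Of 25 ligand genes listed, 12 averaged at least 1 FPKM and were tested. The rest went both ways, with Pdgfb higher in KO and Fgf5 lower, for example. Of the 12 tested, 1 was higher and 11 lower in KO, with 0 called by limma (0 with an unadjusted p under 0.05). Fgf12, Fgf13 and Fgf14 were among the 11 lower, so the count is not one of genes that feed the pathway. Their median log2 difference was -0.22, beside -0.0055 over all genes. This split of the ligand genes was not checked with libraries left out. Tgfa, a ligand of the EGF receptor and the most abundant of them, was at 58.0, 29.8 and 33.8 FPKM in KO and 62.4, 40.7 and 38.6 FPKM in WT. It was higher in the replicate 1 libraries than in the other 4 by 0.74 log2 (SE 0.10, limma adjusted p = 0.0459), a call lost when any 1 library was left out (adjusted p = 0.0930 to 0.231). The call was also lost with no filter on low values (0.0508), the median of ratios set equal (0.0502), quantile normalization (0.0740), assembled bases only (0.0662), the sum of FPKM (0.299) and no length minimum (0.0773). Of 18 receptor genes, 7 were higher and 11 lower in KO with 0 called. Pdgfra, the receptor for the PDGF in the medium, was at 67.4, 60.7 and 134 FPKM in KO and 131, 128 and 76.0 FPKM in WT, a spread that did not follow the members' order. Fgfr3 was at 16.5, 25.1 and 29.3 FPKM in KO and 12.3, 20.6 and 14.7 FPKM in WT.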
